A study of Mus musculus with 4 samples.

Results

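TCRβ+CD8α+ intraepithelial lymphocytes (IELs) of the mouse colon were compared between a library labelled Tcf7KO and a library labelled Tcf7WT. IELs are T cells that lie between the epithelial cells of the gut lining. All cells of both TCRβ libraries were taken except epithelial cells, defined by 10 or more summed UMIs of Krt8, Krt19, Pigr and Epcam. A UMI is a molecular tag that stands for 1 captured transcript. This left 5782 of 5785 cells in Tcf7KO and 7592 of 7603 cells in Tcf7WT, out of 16787 cells in the 4 libraries of the study. Kept cells held at most 7 UMIs of the 4 epithelial genes in either library, while the epithelial cells held 165 or more in Tcf7KO and 12 or more in Tcf7WT.

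Live CD3+ TCRβ+ CD8α+ cells had been sorted, and their transcripts were read from the 3′ end, cell by cell, in droplets. Both libraries carry the strain label E8IcreTcf7fl/fl, in which the exons of Tcf7 flanked by loxP sites can be removed by a Cre recombinase driven by the E8I enhancer of the Cd8 locus. The genotype label alone separates Tcf7KO from Tcf7WT, and the labels do not say whether the Tcf7WT mice carried Cre. Age and the number of mice per library are not given in the sources used here. The remaining 2 libraries of the study hold TCRγδ+CD8α+ IELs of the same genotype labels and are used only for values set beside those of the TCRβ cells. With 1 library for each genotype, the differences described here have no replicates behind them and no test was made. Intervals are exact 95% intervals and cover counting error only.

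Tcf7 encodes TCF-1, a DNA-binding factor of the HMG-box family that can act with β-catenin or with Groucho-type corepressors. In conventional CD8 T cells it is known for keeping naive, memory and progenitor-like cells in a quiescent, self-renewing state, and it is lost as cells become cytotoxic effectors. Intestinal CD8α+ IELs are long-lived resident cells that hold cytotoxic granules and express many natural killer (NK) cell receptors, and many of them carry the CD8αα homodimer in place of CD8αβ.

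Kept cells summed to 18262777 UMIs in Tcf7KO and 20159687 in Tcf7WT, and the median cell held 2860 and 2430 UMIs. The TCRβ libraries shared 10 cell barcodes, and the other pairs of libraries shared 1 to 7. Levels are given as CPM, the UMIs of a gene over all kept cells scaled to a common library total. The defining markers of the sort were present, with Cd8a at 1391 CPM in Tcf7KO and 1356 CPM in Tcf7WT. Of 16 macrophage and dendritic cell markers, 10 were listed in neither library, among them Lyz2, Csf1r and C1qa. Of 13 B and plasma cell markers, 6 were listed in neither library, among them Ms4a1 and Pax5, and 5 were listed in both. These 5 summed to 465 CPM in Tcf7KO and 419 CPM in Tcf7WT. Of the 4 with 100 or more UMIs, 1 was 1.5-fold or more higher in Tcf7KO and 0 lower. Whether B cells were present was not tested. Haemoglobin came from single cells, since 1 cell held 99.7% of the 1183 Hbb-b1 UMIs in Tcf7KO and 1 cell held 99.9% of the 2543 UMIs in Tcf7WT. A UMI of at least 1 of the 4 epithelial genes was seen in 39.5% of kept Tcf7KO cells and 32.6% of kept Tcf7WT cells. Most of these UMIs were of Epcam, at 3115 and 3253 UMIs, and the part of epithelial RNA in the results was not tested.

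Tcf7 was lower in the Tcf7KO library and remained detected there. The 1964 UMIs of Tcf7KO and 2999 UMIs of Tcf7WT gave 108 (103 to 112) and 149 CPM, and the log2 ratio was -0.47 (-0.55 to -0.39). Tcf7 is a minus-strand gene at chr11:52252371-52283014 of GRCm38. Which exons were deleted is not given in the sources used here. Since reads from the 3′ end may fall on exons that were kept, the count is no check of the genotype labels. Lef1, the close relative of Tcf7 in T cells, stood at 49.8 CPM in Tcf7KO and 46.8 CPM in Tcf7WT, a log2 ratio of 0.09 (-0.04 to 0.22). The Tcf7 ratio was below 0 in 6 of 6 groups of like cells described further on, from -0.61 in cluster 3 to -0.05 in cluster 5. With those 6 clusters weighted alike, whatever their number of cells, the ratio was -0.26. Ratios under that weighting, or another scaling, are given beside some of the genes whose place relative to 1.5-fold or sign it changed. They are not given beside all such genes, and Lef1, for example, was -0.15 with clusters weighted alike.

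Of 10664 genes with 100 or more UMIs over both libraries, 176 were 1.5-fold or more higher in Tcf7KO (1.65%) and 222 were 1.5-fold or more lower (2.08%). At 2-fold or more, 38 genes were higher (0.356%) and 40 lower (0.375%). A ratio above 0 was seen for 34.9% of all genes. This fold is a rule of size and not a test. The median log2 ratio of all 10664 genes was -0.07, and 90% of them lay between -0.42 and 0.33. The split between directions depended on scaling and level. With TMM factors, a scaling that centres most genes on no change, 230 genes were higher and 155 lower. Those factors raised each ratio by 0.07, so that list medians of about -0.06 came to lie near 0. Among the 4047 genes at 50 CPM or more in the higher library, 57 were higher and 9 lower. The plot of all genes shows this asymmetry at high levels.

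**Figure D1:**
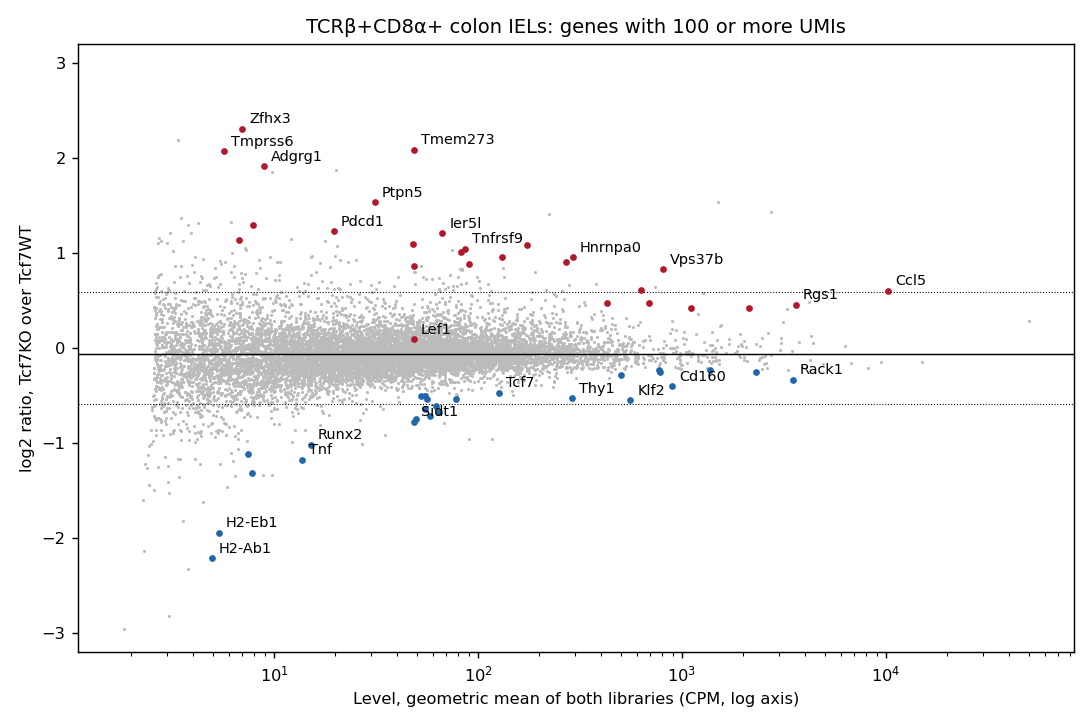
log2 ratio of Tcf7KO over Tcf7WT against level (geometric mean CPM of both libraries, log axis) for the 10664 genes with 100 or more UMIs. Red and blue points are the genes named by the fixed rule, dotted lines mark 1.5-fold, and the solid line is the median of -0.07. Tmem273 and Zfhx3 lie highest among the coloured points and H2-Ab1 lowest.

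Among the gene lists with members at 100 or more UMIs, that of MHC class II genes had the lowest median. MHC class II molecules present peptides to CD4 T cells, with an α and a β chain from genes such as H2-Aa and H2-Ab1, and Cd74 encodes the invariant chain that escorts them. Of 6 members with 100 or more UMIs, 4 were 1.5-fold or more lower and 0 higher, and the list's median log2 ratio was -1.48 against -0.07 for all genes. H2-Ab1, at chr17:34257689-34269419 of GRCm38, had 42 UMIs in Tcf7KO and 215 in Tcf7WT, or 2.30 against 10.7 CPM (log2 ratio -2.21, -2.73 to -1.73). H2-Eb1 had 50 against 212 UMIs (-1.94, -2.42 to -1.49), and H2-Eb2 had 348 against 776 UMIs (-1.01, -1.20 to -0.83). Cd74 had 21 against 164 UMIs (-2.82, -3.55 to -2.16), of which 1 cell held 19.0% in Tcf7KO and 23.8% in Tcf7WT. Without the top cell of each library its ratio was -2.74. H2-Aa had 126 UMIs in Tcf7WT and was not listed in Tcf7KO, so it has no ratio.

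The transcripts of H2-Eb2 and H2-Ab1 were thinly spread over cells rather than held by a few, whereas 1 cell held a sizeable part of the Cd74 UMIs, as given above. H2-Eb2 was found in 298 Tcf7KO cells and 644 Tcf7WT cells, and H2-Ab1 in 39 and 182 cells. Ciita, which encodes the class II transactivator, was 3.56 against 5.31 CPM (-0.58, -1.04 to -0.12), just inside 1.5-fold, and past it at -0.67 with each cell weighing the same. H2-DMa, which helps load peptide, was 4.54 against 5.06 CPM (-0.15). MHC class I and its processing genes showed no such pattern, with 0 of 22 members past 1.5-fold and a median of -0.06. The 31 proteasome genes also had 0 members past that fold.

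The promoters of 3 of these class II genes are shown because H2-Eb1 and H2-Eb2 were both lower, H2-Aa was listed in Tcf7WT alone, and class II genes share a known control element, the Y box, whose core is CTGATTGG. The 3 are thus a chosen part of the list. H2-DMa and H2-DMb1 also have windows in the source used here, which are not shown. H2-Ab1, Cd74 and Ciita have no window there. The sequences are RefSeq windows of GRCm38.p6, limited to the 250 bases before the start of H2-Aa (chr17:34287824-34288073, minus strand), H2-Eb1 (chr17:34305617-34305866, plus strand) and H2-Eb2 (chr17:34325425-34325674, plus strand). Capitals mark CTGATTGG and CTTTGAT, a core motif of TCF-1 and LEF-1, on either strand.
H2-Aa: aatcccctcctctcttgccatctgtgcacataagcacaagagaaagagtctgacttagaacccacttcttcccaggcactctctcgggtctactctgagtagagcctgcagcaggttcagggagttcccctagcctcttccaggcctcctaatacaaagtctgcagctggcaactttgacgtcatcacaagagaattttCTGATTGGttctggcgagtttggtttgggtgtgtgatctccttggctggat
H2-Eb1: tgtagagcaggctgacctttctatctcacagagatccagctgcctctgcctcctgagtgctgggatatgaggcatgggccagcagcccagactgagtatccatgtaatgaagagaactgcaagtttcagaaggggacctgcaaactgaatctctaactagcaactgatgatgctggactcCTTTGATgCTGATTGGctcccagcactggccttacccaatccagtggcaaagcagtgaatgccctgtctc
H2-Eb2: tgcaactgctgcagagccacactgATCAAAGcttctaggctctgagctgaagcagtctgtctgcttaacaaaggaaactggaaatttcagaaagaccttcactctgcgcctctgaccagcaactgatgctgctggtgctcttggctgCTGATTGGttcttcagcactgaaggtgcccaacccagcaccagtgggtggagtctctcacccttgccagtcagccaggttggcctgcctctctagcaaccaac
CTGATTGG was found in the 3 windows, 51 bases before the start of H2-Aa, 62 before that of H2-Eb1 and 103 before that of H2-Eb2. It occurs in 4.10% of all 32851 windows of 300 bases (250 before and 50 after a start). CTTTGAT lay 70 bases before the start of H2-Eb1, upstream of the Y box with no overlap, and on the opposite strand 226 bases before H2-Eb2. It occurs in 3.73% of all windows. Among genes with a window, CTTTGAT was present in 5 of 119 that were 1.5-fold higher, 10 of 158 that were lower and 251 of 8236 of all tested genes. CTGATTGG was present in 12 of 119, 8 of 158 and 585 of 8236. A match describes letters and not a bound site.

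**Figure D2:**
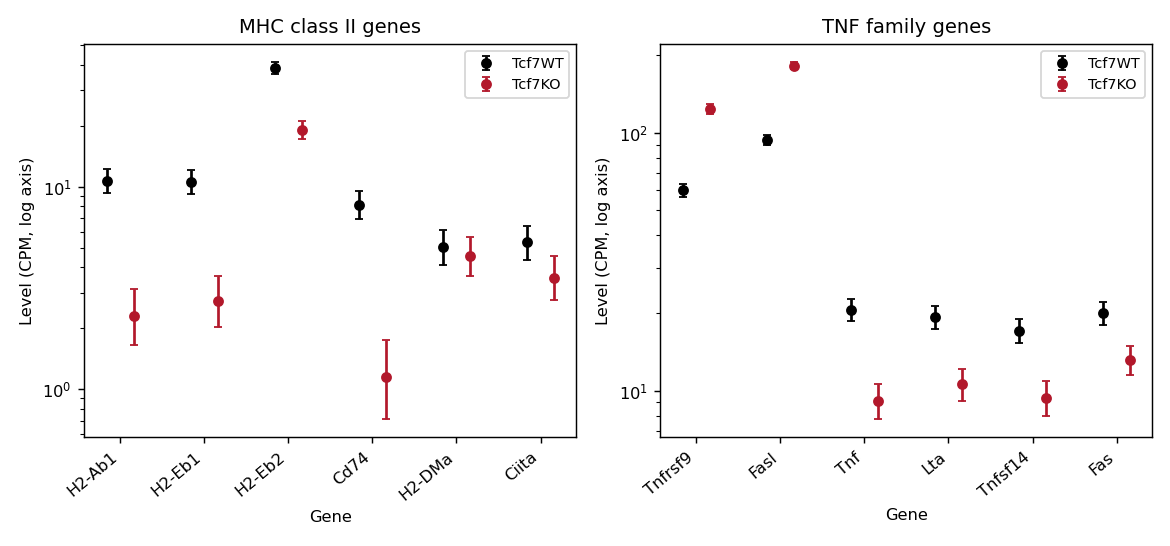
Level in CPM (log axis) of MHC class II genes (left) and TNF family genes (right) in Tcf7KO (red) and Tcf7WT (black), with exact 95% Poisson intervals as bars. H2-Ab1, H2-Eb1, H2-Eb2 and Cd74 are lower in Tcf7KO with intervals that do not meet, while H2-DMa overlaps. Tnfrsf9 and Fasl are higher and Tnf, Lta, Tnfsf14 and Fas lower.

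Among genes at 50 CPM or more, Tmem273, Ptpn5 and Ier5l had the highest ratios. Tmem273, at chr14:32785963-32817984 of GRCm38, was 4.25-fold higher, at 99.8 against 23.5 CPM (log2 ratio 2.09, 1.94 to 2.23). Ptpn5, a tyrosine phosphatase that acts on MAP kinases, was 53.0 against 18.3 CPM (1.54, 1.36 to 1.71). Errfi1, a feedback inhibitor of EGF receptor family kinases, was 69.7 against 32.7 CPM (1.09), and Ier5l, an immediate-early gene, was 101 against 43.9 CPM (1.21). Tnfrsf9 encodes the costimulatory receptor 4-1BB and was 124 against 59.8 CPM (1.05, 0.95 to 1.15). Fasl encodes the ligand that kills Fas-bearing cells and was 182 against 93.8 CPM (0.96, 0.87 to 1.04).

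The other 6 genes named as higher at this level were 1.82-fold to 2.12-fold higher. Ptger4, which encodes the prostaglandin receptor EP4, was 117 against 58.3 CPM (1.01). Fgl2, a secreted fibrinogen-like protein with immune-suppressive activity, was 368 against 196.0 CPM (0.91). Entpd1 encodes CD39, an ectoenzyme that breaks down ATP, and was 65.7 against 36.1 CPM (0.86). Trf, which encodes transferrin, was 123 against 66.4 CPM (0.89). The RNA-binding protein gene Hnrnpa0 was 405 against 209 CPM (0.96, 0.90 to 1.01), and the noncoding RNA Rn7sk was 253 against 119 CPM (1.09).

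Among the genes at 50 CPM or more that were lower in Tcf7KO, folds were smaller. Sidt1, a membrane protein gene implicated in RNA uptake, was 37.2 against 63.7 CPM (-0.77, -0.91 to -0.64). Acpp, which encodes prostatic acid phosphatase, was 38.2 against 64.2 CPM (-0.75). Wwp1, a ubiquitin ligase of the NEDD4 family, was 45.3 against 74.1 CPM (-0.71). Abhd8 (-0.68) and Elk4 (-0.61), a partner of serum response factor, were also past 1.5-fold. Lgals1, which encodes galectin-1, was 44.1 against 68.9 CPM (-0.64), and its ratio was -0.58 with TMM factors. With clusters weighted alike, Abhd8 (-0.57), Lgals1 (-0.57), Wwp1 (-0.47) and Elk4 (-0.46) were less than 1.5-fold lower. The other 6 were less than 1.5-fold lower in the libraries as a whole: Klf2 (-0.55), Fam241a (-0.54), the adhesion receptor gene Cd44 (-0.53), Thy1 (-0.53), the nucleic acid sensor gene Zbp1 (-0.50) and the cathepsin gene Ctss (-0.50). Klf2, a factor that supports T cell recirculation, was 461 against 674 CPM, and the T cell surface protein gene Thy1 was 241 against 347.0 CPM.

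Among abundant transcripts, at 500 CPM or more, Ccl5, Vps37b and Pdcd4 were past 1.5-fold besides Gzma, Gzmb and an unnamed gene model, and 0 were that far lower. Ccl5, the gene of a chemokine stored by memory and cytotoxic T cells, was 12643 against 8322 CPM (log2 ratio 0.60, 0.59 to 0.61). Vps37b, a subunit of the ESCRT-I sorting complex, was 1071 against 604 CPM (0.83), and Pdcd4, an inhibitor of translation initiation, was 776 against 508 CPM (0.61). With clusters weighted alike Ccl5 (0.37) and Vps37b (0.55) were inside 1.5-fold, and Pdcd4 did not cross that fold. Below that fold came Neurl3 (0.48), Calm2 (0.47), Rgs1 (0.46), a regulator of chemokine receptor signalling, the cochaperone gene Dnaja1 (0.42) and the AP-1 gene Junb (0.42). At the other end, Cd160, a receptor of IELs and NK cells, was 776 against 1026 CPM (-0.40). Rack1 (-0.33), Ndufa4 (-0.28), Hcst (-0.25), Fos (-0.25), Cd3d (-0.23) and Myl12b (-0.23) lay closer to the other genes.

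Folds were larger among scarce transcripts, at 10 to 50 CPM. Zfhx3, a zinc-finger homeobox factor, had 283 UMIs in Tcf7KO and 63 in Tcf7WT (log2 ratio 2.31, 1.91 to 2.73). It stood at 101.8 CPM in the epithelial cells that were left out, and the part of epithelial RNA in its ratio was not tested. Without leaving out epithelial cells the ratio was 2.18. Tmprss6, a transmembrane serine protease gene, had 213 against 56 UMIs (2.07), and Adgrg1, which encodes GPR56, an adhesion receptor of cytotoxic lymphocytes, had 317 against 93 UMIs (1.91). Art2b (1.29), Pdcd1 (1.23) and Dennd5a (1.13) were also higher. Beside the class II genes, the lower end held Cpne7 (-1.31), Tnf (-1.18), Igfbp4 (-1.11) and Runx2 (-1.02). Runx2, a RUNX factor linked to memory T cells, had 194 UMIs in Tcf7KO and 434 in Tcf7WT. It was among the leading genes of cluster 5, and its ratio was -0.03 with clusters weighted alike.

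Transcription factors of quiescence and memory were little apart. Of 18 measured, 1 was 1.5-fold or more higher, 0 lower, and the median was 0.04. The 1 member was Bcl6, a repressor tied to memory and follicular T cells, with 101 against 69 UMIs (0.69, 0.24 to 1.16). Id3, an inhibitor of E proteins, was 307 against 396 CPM (-0.37), and Foxo1 (0.14), Satb1 (0.17), Bach2 (-0.23) and Tox (0.01) lay within the range of most genes. Bach2 was -0.61 with clusters weighted alike. Cofactors and targets of the Wnt and TCF pathway held 0 of 16 members past that fold. Among them were Ctnnb1, which encodes β-catenin (0.14), the target gene Axin2 (-0.06), Tle4 (0.16) and Myc (-0.38).

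Effector and residency factors had members past 1.5-fold in both directions. Of 23 measured, 2 were higher and 1 lower, with a median of 0.08. Bhlhe40, a factor of resident T cells, was 108 against 61.0 CPM (0.83, 0.73 to 0.93), and Maf had 209 against 129 UMIs (0.84). Zeb2, a factor of terminal circulating effectors, had 36 against 88 UMIs (-1.15). With clusters weighted alike neither Zeb2 (-0.14) nor Maf (0.22) was past 1.5-fold, whereas Prdm1 (0.74) and Rora (-0.78) were. Prdm1, which encodes Blimp-1 (0.52), Rora (-0.57), Tbx21 (0.00), Runx3 (0.15), Ahr (-0.21) and Ikzf2 (-0.12) were less than 1.5-fold apart. Of 14 genes linked to naive and circulating T cells, 0 were higher and 2 lower: Igfbp4, with 93 against 222 UMIs, and Dapl1, with 84 against 194 UMIs (-1.07). Il7r (-0.01) and Ccr7 (0.06) were near no change.

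Inhibitory receptors and feedback genes had 4 of 22 members higher, 0 lower and a median of 0.02. Pdcd1, which encodes PD-1, was 29.95 against 12.8 CPM (1.23, 1.01 to 1.45). Ctla4, the inhibitory rival of CD28, had 1735 against 1123 UMIs (0.77, 0.66 to 0.88), and Tigit, an inhibitory receptor for nectins, had 101 against 73 UMIs (0.61). The fourth was Entpd1. Tigit was inside 1.5-fold at 0.37 in thinned cells and 0.21 with clusters weighted alike. Lag3 was 0.26, and feedback genes went both ways, with Tnfaip3, which encodes the ubiquitin-editing enzyme A20, at 0.48, Dusp6 at -0.53 and Ubash3a at -0.56. Costimulators of the CD28 and adhesion families had 0 of 17 members past 1.5-fold. Cd44 was the lowest of them, and Icos was 0.30.

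Members of the TNF family went in opposite directions. Of 21 measured, 2 were higher (Tnfrsf9 and Fasl) and 4 lower, and the median was -0.06. Tnf was 9.09 against 20.5 CPM (-1.18, -1.44 to -0.91). Its neighbour Lta, which encodes lymphotoxin-α, lies at chr17:35203165-35205351 of GRCm38 beside Tnf (chr17:35199381-35202007) and was 10.6 against 19.2 CPM (-0.86, -1.12 to -0.61). Tnfsf14, which encodes the ligand LIGHT, was 9.36 against 17.1 CPM (-0.87), and Fas, the receptor of Fasl, was 13.1 against 19.9 CPM (-0.60). Ltb, the partner of lymphotoxin-α, was -0.22, and Cd27 was -0.06. Of the 4 lower genes, 3 were inside 1.5-fold under an alternative. With clusters weighted alike Lta was -0.17 and Fas -0.41, and in thinned cells Tnfsf14 was -0.55. With TMM factors Fas was -0.53.

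Other secreted factors were fewer. Of 8 cytokine genes measured, 1 was higher (Fgl2) and 1 lower (Tnf). Ifng, which encodes interferon-γ, was 51.7 against 64.2 CPM (-0.31), Csf2 was -0.41 and Tgfb1 was 0.31. Of 6 chemokine genes, 2 were higher and 0 lower: Ccl5, and Cxcl10, a ligand of CXCR3, with 421 against 249 UMIs (0.90). Xcl1, at 1764 against 1654 CPM (0.09), and Ccl3 (0.09) differed little.

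Receptors for cytokines and chemotactic signals had few members past 1.5-fold. Of 27 cytokine receptor and STAT genes, 2 were higher and 0 lower. Il2rb, the β chain shared by the IL-2 and IL-15 receptors, was 318 against 210.2 CPM (0.60, 0.54 to 0.65), and Ifngr2 had 362 against 235 UMIs (0.77). The Il2rb ratio was 0.33 with clusters weighted alike. Of 17 homing and chemotactic receptors 13 had a ratio above 0. Ccrl2, a chemerin-binding receptor, was higher at 29.1 against 15.3 CPM (0.93), and Gpr15, a colon-homing receptor, was lower with 51 against 98 UMIs (-0.80) and stood at -0.34 with clusters weighted alike. Cxcr3 (-0.42) and Ccr9 (0.15) were less far apart. Integrins and other residency proteins had 0 of 24 members past 1.5-fold, with Itgae, which encodes the αE chain that binds E-cadherin, at 0.23, Itgal at -0.41 and Itga4 at -0.34.

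NK-type receptors differed at few members. In the NKG2, CD94 and NKR-P1 list, 1 of 14 was higher, 0 lower, and the median was -0.15. Klrb1c, the gene of NK1.1, was 85.4 against 53.1 CPM (0.69, 0.57 to 0.80), and Klrk1, the gene of NKG2D, was 54.8 against 73.5 CPM (-0.42). With clusters weighted alike Klrb1c was 0.54 and Klrk1 turned to 0.25. Klrd1, which encodes CD94, was -0.12. The 8 Ly49 genes measured held 0 past 1.5-fold, and their copies are so alike that reads may be split among them. Fcgr3, an activating Fc receptor that pairs with Fcer1g, had 479 against 242 UMIs (1.13, 0.90 to 1.36), the 1 of 9 ITAM adaptor and Fc receptor genes past 1.5-fold. Fcer1g was 0.15, and Hcst, the adaptor of NKG2D, was 714 against 851 CPM (-0.25).

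The T cell receptor pathway was close to the other genes. Of 42 proximal signalling genes, 0 were past 1.5-fold in either direction and the median was 0.02. Txk, a TEC-family kinase, came nearest at 291 against 199 CPM (0.55; 0.62 with TMM factors), and Dgka (-0.36) and Csk (-0.40) were on the other side. Among immediate-early genes, 3 of 29 were higher and 1 lower: Ier5l, Fosl2 at 111 against 62.7 CPM (0.82), Crem at 71.5 against 43.3 CPM (0.72), and Ier3 with 53 against 116 UMIs (-0.99). With clusters weighted alike Fosl2 (0.58), Crem (0.50) and Ier3 (-0.54) were inside 1.5-fold. Jun (-0.17), Fosb (-0.26) and Nr4a1 (0.13) were within the range of most genes. Of 38 phosphatases and feedback regulators of RAS and MAP kinase signalling, 3 were higher, namely Ptpn5, Errfi1 and Dusp4 (0.75), and Elk4 alone was lower.

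Of 25 cytotoxic granule and serpin genes other than granzymes, 2 were 1.5-fold or more higher and 0 lower. Serpinb9, an inhibitor of granzyme B that protects the killer cell, was 103 against 61.3 CPM (0.74, 0.64 to 0.85), and Serpinb6b was 173 against 103 CPM (0.74, 0.66 to 0.82). Prf1, which encodes perforin, was 17.7 against 12.1 CPM (0.55, 0.30 to 0.79), just inside 1.5-fold and past it with TMM factors (0.62). The serpins Serpina3g (0.44) and Serpinb6a (-0.09), and Nkg7 (0.24) and Srgn (0.09), were not past that fold. Of 26 BCL-2 family and cell death genes, 0 were higher and 2 lower, Fas and the inflammatory caspase gene Casp1 at 13.7 against 20.9 CPM (-0.61). Bcl2l11, the gene of the death-inducing protein BIM, was 163 against 113 CPM (0.53). With TMM factors Casp1 was -0.54 and Bcl2l11 0.60, and with clusters weighted alike Casp1 was -0.20.

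Metabolic and housekeeping lists had medians near that of all genes and few members past 1.5-fold. Among 73 respiratory chain and ATP synthase genes, 2 were higher: Atp5k at 251 against 145 CPM (0.80) and Ndufa12 with 157 against 95 UMIs (0.87, and 0.58 in thinned cells). Of 24 glycolysis genes, Hk2 (0.97) and the lactate exporter gene Slc16a3 (0.59) were higher, and Hk2 stood at 356 CPM in the epithelial cells that were left out against 21.5 CPM in kept Tcf7KO cells. Fatty acid synthesis genes Fasn (-0.79) and Scd2 (-0.66) were the 2 of 34 lipid genes that were lower, and Scd2 was -0.52 with clusters weighted alike. Ccne2 (0.75) was the 1 of 41 cell cycle genes that was higher, and Usp18 (-0.59) the 1 of 44 interferon-response genes that was lower. The Usp18 ratio was -0.53 with TMM factors and 0.10 with clusters weighted alike. Actin and motility genes held 0 of 36 past 1.5-fold, with 30 of 36 ratios below 0. The 29 heat shock and chaperone genes, 29 genes of mTOR and translation, 30 chromatin regulators and 8 GIMAP GTPases also held 0. Of 14 TGF-β pathway genes, the corepressor gene Tgif1 alone was past that fold, at 62.1 against 38.8 CPM (0.68), and it was 0.43 with clusters weighted alike.

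**Figure D3:**
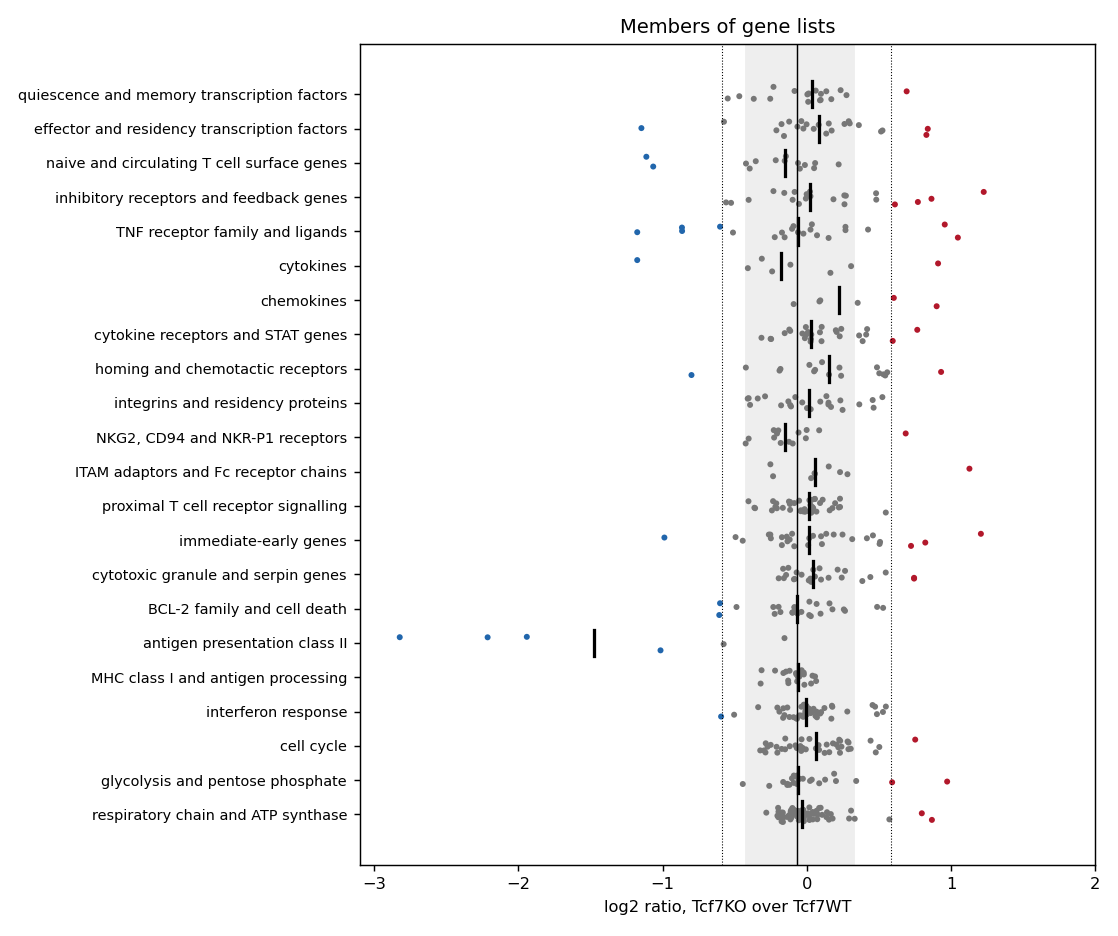
log2 ratio of Tcf7KO over Tcf7WT for the members of 22 gene lists with 100 or more UMIs. Black bars are list medians, the solid line is the median of all genes (-0.07), the grey band holds 90% of all genes (-0.42 to 0.33), and dotted lines mark 1.5-fold. The class II list lies left of the band with a median of -1.48, and the other medians lie inside it.

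The cells of both libraries were clustered together without the 1745 genes that stood 1.5-fold or more apart, which gave 6 clusters. Cluster 3 held 1388 of 5782 Tcf7KO cells (95% interval 22.9% to 25.1%) and 1426 of 7592 Tcf7WT cells (17.9% to 19.7%). It was called cytotoxic resident IEL-like from Gzma and Gzmb, both of which differ between the libraries. Itgae, Cd244a, Itga1 and Jaml of that marker set were also highest there. Ccl5 was slightly higher in cluster 5, and Cd160 was 729 CPM against 980 in cluster 1 and 1182 in cluster 2. Innate-like CD8αα markers were highest in cluster 3 too, with Fcer1g at 2782 CPM and Tyrobp at 2062 CPM, except Ikzf2, which was highest in cluster 2. The markers thus do not set these 2 kinds of IEL apart. Cluster 6, naive-like from Ccr7, Dapl1 and Igfbp4, held 104 Tcf7KO and 137 Tcf7WT cells. Cluster 5, called circulating memory-like from S100a4, S100a6 and Gzmk, held 2.21% and 2.98%. Cxcr3 (299.4 CPM) and Itgb1 (309.4 CPM) were also highest there. Other genes of circulating cells were lower in cluster 5 than in clusters 4 and 6. S1pr1 was 114.8 against 158.2 and 451.6 CPM, and Ly6c2 was 222.6 against 317.9 and 500.2 CPM. The residency gene Itgae was 375.3 CPM in cluster 5 and 394.8 CPM in cluster 1. Whether the cells of cluster 5 circulate was not tested. The other 3 clusters had no name. Cluster 4, led by cell cycle genes with Ly6c2 and S100a4, held 8.65% and 8.89%. Cluster 1, led by Rrad and Junb, held 43.2% and 29.4%, and cluster 2, led by haemoglobin genes of single cells and noncoding RNAs, held 20.1% and 38.2%. These last 2 merged at a lower resolution, at 67.8% and 71.1%. Of the genes named as higher, Junb, Ier5l and Vps37b were among the leading genes of cluster 1, and Tnfrsf9, Fgl2 and Tmprss6 among those of cluster 3. Of those named as lower, Lgals1 and Runx2 were among those of cluster 5, and Klf2 and Igfbp4 among those of cluster 6. The part of cluster shares in their ratios was not tested. Median UMIs per cell in cluster 3 were 3617.5 in Tcf7KO and 2872.5 in Tcf7WT, and whether depth plays a part in the shares was not tested.

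The named genes were picked for large ratios in the same UMIs that are split into clusters here. A shared sign between clusters is thus largely given in advance, and the share of all genes with such a sign was not counted. Of the 12 genes named as higher at 50 CPM or more, 10 had a ratio above 0 in 6 of 6 clusters. The exceptions were Errfi1, at -0.09 in cluster 6, and Ptpn5, which had no Tcf7WT UMI in clusters 5 and 6. Of the 12 named as lower, 6 had a ratio below 0 in 6 of 6 clusters: Sidt1, Acpp, Abhd8, Klf2, Cd44 and Zbp1. Pdcd4 was higher by nearly the same amount in 6 of 6 clusters, from 0.53 to 0.65, and Atp5k from 0.75 to 0.88. Hnrnpa0 was also higher in 6 of 6, from 0.58 to 1.14. Tmem273 differed more between clusters, at 2.94 in cluster 2, 1.40 in cluster 3 and 0.46 in cluster 4. Ccl5 was 0.96 and 1.01 in clusters 1 and 2, 0.24 in cluster 3 and -0.16 in cluster 4. Thy1, Cd160 and Lgals1 were further apart in cluster 3 than in clusters 1 and 2: Thy1 at -1.13 against -0.29 and -0.27 in clusters 1 and 2, Cd160 at -0.89 against -0.22 and -0.20, and Lgals1 at -3.50 against -1.48 and -1.10. The Lgals1 ratio was 0.10 in cluster 4. Tnf was -2.31 and Fas -1.48 in cluster 3, and H2-Eb2 was -0.79, -1.28 and -1.50 in clusters 1, 2 and 3. Differences between clusters were not tested, and clusters 5 and 6 rest on 104 to 226 cells of each library.

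**Figure D4:**
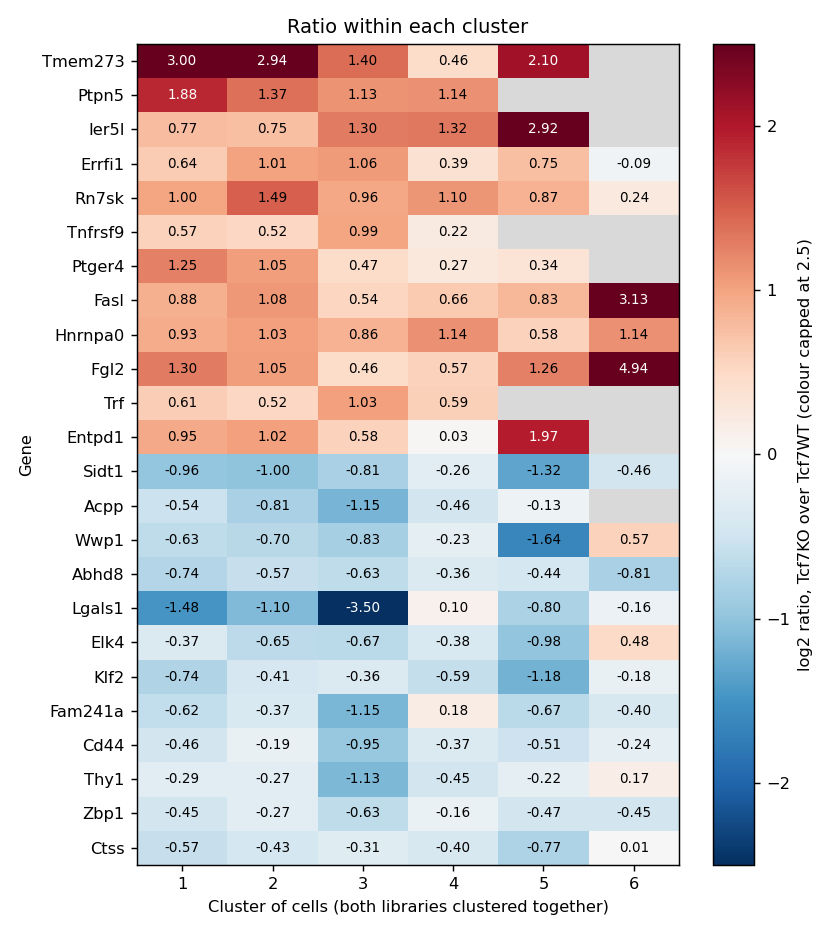
log2 ratio of Tcf7KO over Tcf7WT within each of 6 clusters for the 24 genes named at 50 CPM or more. Numbers and colour give the ratio (colour capped at 2.5), and grey marks fewer than 20 UMIs or no UMI in 1 library. Hnrnpa0 and Fasl are above 0 in each cluster, and Lgals1 reaches -3.50 in cluster 3.

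Shares of cells with a UMI were compared after each cell had been thinned to 1624 UMIs, which left out 489 Tcf7KO and 758 Tcf7WT cells. Ccl5 was found in 94.3% of Tcf7KO cells (93.7 to 94.9) and 83.5% of Tcf7WT cells (82.6 to 84.4), and without thinning in 95.9% and 86.2%. Hnrnpa0 was found in 47.5% against 28.2%, or 66.8% and 40.4% without thinning. Fasl was found in 24.2% against 12.6%, Tmem273 in 13.6% (12.7 to 14.5) against 3.32% (2.91 to 3.77), and Ptger4 in 15.1% against 7.42%. Fewer Tcf7KO cells had a UMI of Thy1 (27.1% against 36.6%), Klf2 (23.5% against 29.4%) and Tcf7 (15.9% against 20.9%). In the 44 epithelial cells of all 4 libraries deep enough to thin, whose median before thinning over 52 cells was 10021.5 UMIs, Tmem273, Fasl, Thy1 and Tcf7 were found in 0 cells, which allows a share of up to 6.82%. Ccl5 was found in 2 of those 44 cells, Hnrnpa0 in 14 and Klf2 in 8. At 3.32%, Tmem273 in Tcf7WT was below this limit, so 44 thinned cells are too few to set its share apart from background. Without thinning, Tmem273 was found in 0 of the 52 epithelial cells. Its level was 0 CPM in them and 23.5 CPM in Tcf7WT.

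**Figure D5:**
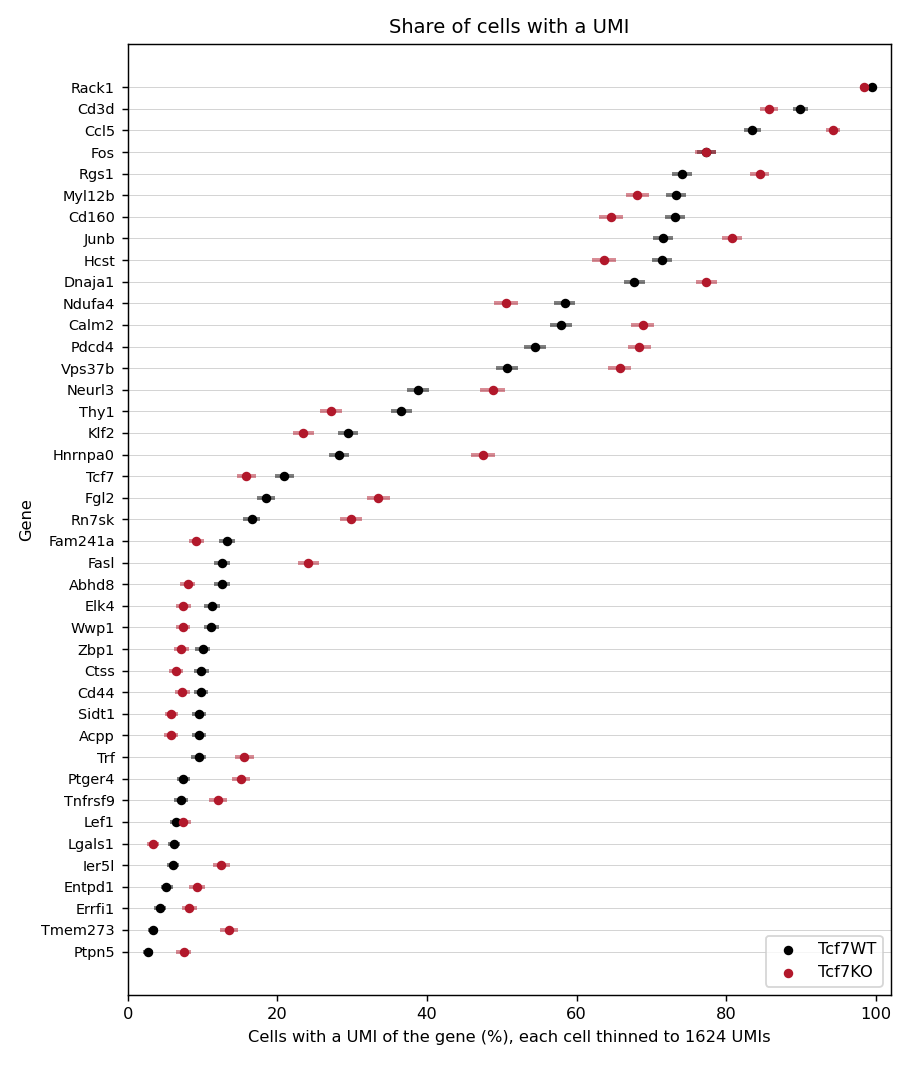
Percentage of cells with a UMI of each gene in Tcf7KO (red) and Tcf7WT (black), each cell thinned to 1624 UMIs, with exact 95% binomial intervals as bars. Genes are ordered by their share in Tcf7WT. Ccl5 moves from 83.5% to 94.3% and Hnrnpa0 from 28.2% to 47.5%, while the 2 points of Fos lie together.

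Trbv and Trav segments were seen in a minority of cells, and Traj segments in 2684 Tcf7KO and 3688 Tcf7WT cells. A Trbv UMI was found in 501 Tcf7KO cells and 615 Tcf7WT cells. Trbv12-2 led in both, in 19.4% and 20.7% of those cells, and no Trbv segment had intervals that failed to meet. Of Trav segments, seen in 974 and 1145 cells, 2 near-identical copies had separate intervals: Trav6n-7 in 10.5% against 5.68% of cells and Trav6d-7 in 8.32% against 3.49%. The constant genes Trac (-0.11), Trbc1 (0.08) and Trbc2 (-0.08) differed little, as did Trdc (-0.07), and Cd8b1 was -0.24.

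In the TCRγδ libraries, 46 of the 48 named genes with 100 or more UMIs there had a ratio of the same sign, and 28 were past 1.5-fold in that direction. The named genes were picked for large ratios in TCRβ cells. Of all genes 1.5-fold higher in TCRβ Tcf7KO with that many UMIs, 116 of 123 shared the sign and 60 the fold. Of those lower, 55 of 59 shared the sign and 32 the fold. Over all 8863 genes with 100 or more UMIs in both sorts the sign was the same for 64.7%, 3651 had a ratio above 0 and 5212 below 0 in TCRγδ cells, and 161 were 1.5-fold higher and 327 lower in TCRγδ Tcf7KO. Thy1 was -2.46 and Lgals1 -3.51 there, Ccl5 was 0.02 and Pdcd4 0.11, and Dennd5a was -0.47 against 1.13 in TCRβ cells.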

How the data were processed

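The 4 libraries were prepared with a droplet-based 3′ kit from sorted colon IELs, per the labels' protocols. For each library the authors deposited a matrix of UMI counts, with genes named by symbol. Seurat 3.0.0, GRCm38 and mm10 are named in the submitters' processing notes with no role, and the aligner and counter are not given in the sources used here. Other deposited columns hold gene and barcode names, not measurements. A gene not listed by a library got no value there. GENCODE M21 coordinates of GRCm38 were found for 97.8% of symbols.

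UMIs were summed over kept cells and scaled to CPM. Ratios have exact intervals conditional on both counts, CPM exact Poisson and shares Clopper-Pearson intervals. PCR duplicates are removed by UMIs, and intervals cover counting error only. Kept cells held 18262777 (Tcf7KO) and 20159687 (Tcf7WT) UMIs, which gave Tcf7 in Tcf7KO an interval of 103 to 112 CPM. With 1 library per group there was no test, and cells were not used as replicates. Named genes were Tcf7 and Lef1, the 12 highest and 12 lowest ratios at 50 CPM or more, 8 and 8 at 500 CPM or more and 6 and 6 at 10 to 50 CPM. Left out were granzymes, Cxcr6, unnamed models and genes of antigen receptors, immunoglobulins, haemoglobin, mitochondria, ribosomes and sex, as were genes with over 20% of a library's UMIs in 1 cell or 10-fold higher in epithelial cells. Members of 52 lists with 100 or more UMIs could also be named. The genes, lists and rules were chosen with earlier results of these data known.

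Clustering used 2000 variable genes, 30 components, 15 neighbours and the Leiden method at a resolution of 0.5 (scanpy 1.11.5, leidenalg 0.10.2), without cell cycle genes, sex genes, Tcf7 and receptor segments. Scrublet called 0 and 1 doublets, and whether it missed others was not tested. Doublets were not removed. Alternatives included size factors of DESeq2 1.42.0 and TMM factors of edgeR 4.0.16. The calculations were tested on simulated data.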

Additional observations from a re-analysis of the deposited data

How the results depend on the processing

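With 1 library per genotype, no library could be left out. No paired analysis was possible because each group is 1 library and the labels give no replicate numbers. Of 72 named genes or list members that were 1.5-fold or more apart, 69 had the same sign under all 12 alternative treatments of cells and scaling and 43 stayed past 1.5-fold in all of them. The exceptions in sign were Hba-a2, at 1.95 without the cell with the most UMIs and 0.52 with clusters weighted alike, and, with clusters weighted alike, Slc12a2 at 0.10 and Usp18 at 0.10. The median of the erythroid list was 0.86 without the top cell. The Tcf7 ratio of -0.47 was -0.26 with clusters weighted alike and between -0.47 and -0.40 otherwise. The count of lower genes, 222, was 336 with clusters weighted alike. With a minimum of 20 UMIs, 395 of 12752 genes were higher (3.10%) and 727 lower (5.70%). With a minimum of 500 UMIs, 91 of 7907 genes were higher (1.15%) and 34 lower (0.43%). The shares thus changed along with the number of genes tested. With TMM factors 59.7% of the genes past 1.5-fold were higher, against 44.2% without, and with DESeq2 size factors 60.3%. The difference in share of cluster 3, 5.22 percentage points, was 8.13 at a resolution of 1 and 16.9 when clustered on all variable genes. The cause was not tested. The alternative without Scrublet doublets changes at most 1 cell.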

Other observations

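The following 3 small structural RNAs lie outside the naming rule, were chosen with their values in view, and were not counted against others of their kind. Rpph1, the RNA of ribonuclease P, had 177 UMIs in Tcf7KO and 78 in Tcf7WT (log2 ratio 1.33, 0.93 to 1.73). The small nucleolar RNAs Snord118, with 144 against 85 UMIs (0.90), and Snord13, with 259 against 153 UMIs (0.90), also had higher values in Tcf7KO. In the TCRγδ libraries the same ratios were 0.27 for Rpph1, 0.24 for Snord118 and 0.57 for Snord13. Pdcd4, Hnrnpa0 and Atp5k, also chosen with their values in view, had ratios of one sign in every cluster, naive-like cells included. In the TCRγδ libraries Pdcd4 was 0.11 and Hnrnpa0 0.29.

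The metallothionein genes Mt1 and Mt2, which encode metal-binding proteins, were likewise picked after their values were seen. Mt1 had 112 against 313 UMIs (-1.34, -1.67 to -1.02) and Mt2 had 31 against 171 UMIs (-2.32, -2.92 to -1.76). Among kept cells both were leading genes of cluster 3, Mt1 at 33.1 CPM against 3.75 CPM in the other clusters and Mt2 at 18.9 against 0.73 CPM. Mt1 was 10-fold or more higher in the epithelial cells that were left out than in kept cells. The part of epithelial RNA in these ratios was not tested.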
